A study of Mus musculus with 10 samples.

Results

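The genes described are 30 mouse genes, Aplp2, which encodes an amyloid precursor-like protein, and 29 orthologues of genes named at human loci associated with refractive error. They were taken by name from a fixed list of symbols, with no cut on their values. The list itself was chosen with earlier results of these data known. Of the 30, 29 were found under the listed symbol in the table of 25905 genes. The thirtieth, Qki, was listed under its mouse symbol Qk, which RefSeq pairs with it as a synonym. Total RNA was sequenced from the left and the right retina of 5 wild type animals of strain C57BL/6J at postnatal day 34, which gave 10 libraries. The numbers in the sample titles, taken as the animals, are 61, 64, 65, 66 and 68. Each animal had worn a -20 dioptre lens over 1 eye for 10 days from postnatal day 24, while its other eye had no lens, so both groups hold retinas of animals that wore a lens. The labels name the side of a retina but not its lens. Left is therefore compared with right, 5 against 5, and which eyes were treated is not known here.

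Refractive error arises when the length of the eye does not match the focal length of its optics. A growing eye uses its retinal image to adjust its length, and a minus lens, which moves the focus behind the retina, makes it grow longer and become myopic. Association studies in people have tied refractive error to many common variants, most of them outside coding sequence, and the gene named at a locus is often the nearest one and not a proven cause. The genes named encode proteins of many kinds, among them synaptic scaffolds, splicing factors, chromatin remodellers, matrix proteins and mitochondrial enzymes.

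Values are CPM, read counts scaled to library depth, not divided by gene length, and 1 CPM stood for 89.6 to 113.8 counts by the step between the lowest values of a library. Markers of rods, cones, bipolar, amacrine and ganglion cells and Müller glia were present in all 10 libraries, with 6 rod genes summing to between 10102 and 11786 CPM. The 8 lens markers stood apart in the right eye of mouse 65, where they summed to 765 CPM, against 6.95 to 107 CPM elsewhere. The 6 skeletal muscle markers did so in the left eye of mouse 68, with 58.2 CPM against at most 3.48 CPM. The sum of the 7 fibroblast markers, for sclera and connective tissue, was higher on the right in each mouse. It ran from 13.1 to 17.7 CPM in left and from 18.3 to 23.5 CPM in right retinas, without overlap. Its part in the right-minus-left differences given below was not tested. For the right retina of mouse 64 the labels report that corrupted reads were removed from a raw file.

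All 30 genes were detected in all 10 retinas. For comparison between genes, CPM were divided by the length of all annotated exons (GENCODE M21), which understates genes with many unused exons. Aplp2 stood first at 39.8 ± 1.69 CPM per kb (SD, n = 10), followed by Ano2, a calcium-activated chloride channel, at 9.06 ± 0.613, the chromatin remodeller Chd7 at 8.12 ± 0.919 and the synaptic scaffold Dlg2 at 7.31 ± 0.223 CPM per kb. At the lower end were Bicc1, an RNA-binding protein (0.135 ± 0.0236 CPM per kb), Lama2, the laminin alpha 2 chain of basement membranes (0.12 ± 0.0387), and Cd55, a complement regulator of the cell surface (0.0472 ± 0.0175). The ranges of Aplp2 and Ano2 over the 10 retinas did not overlap. Those of Ano2 and Chd7 did, as did those of Chd7 and Dlg2, and the order within each of these pairs is not set beyond their spread.

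**Figure D1:**
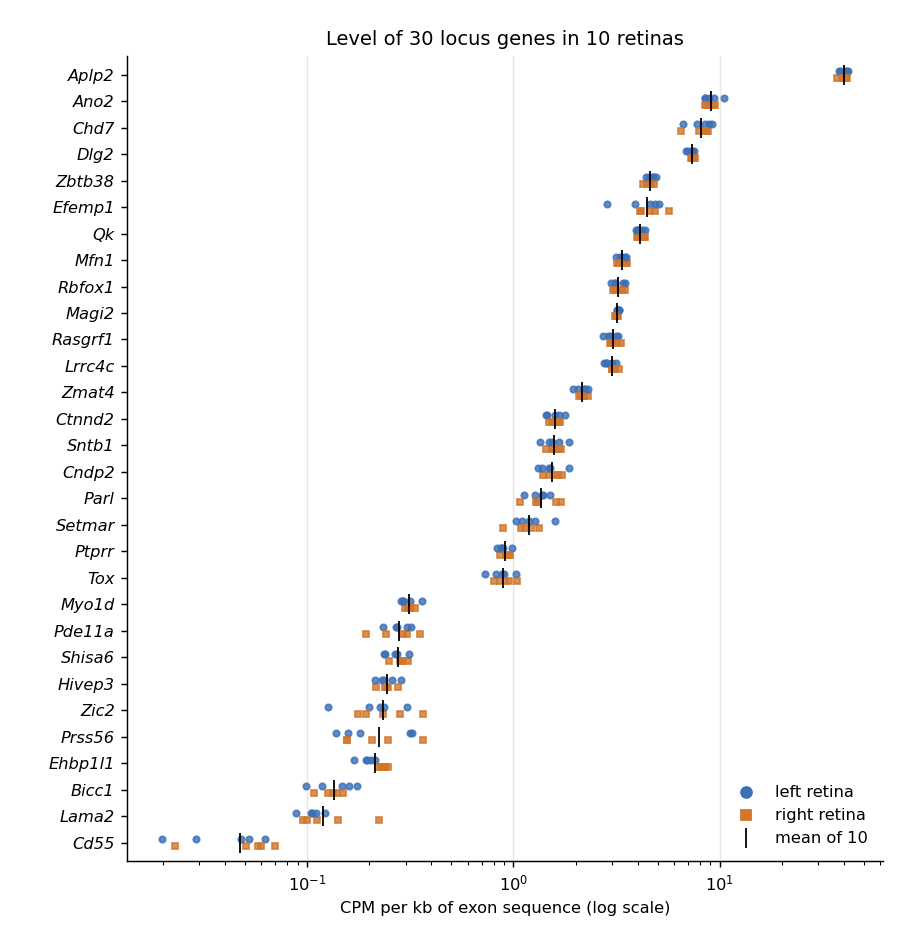
Level of each of the 30 genes in CPM per kb of exon sequence on a log axis, with the 5 left retinas as circles, the 5 right retinas as squares and the mean of 10 as a bar. Aplp2 lies apart at 37.2 to 42.0 CPM per kb, and Cd55 lies lowest at 0.0197 to 0.0699 CPM per kb.

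A middle group without gaps ran from Mfn1 to Lrrc4c. Mfn1, which fuses mitochondrial outer membranes, stood at 3.37 ± 0.153 CPM per kb, the neuronal splicing factor Rbfox1 at 3.22 ± 0.191, the junction scaffold Magi2 at 3.19 ± 0.0505, the Ras exchange factor Rasgrf1 at 3.04 ± 0.181, and Lrrc4c, a postsynaptic adhesion protein that binds netrin-G1, at 3.0 ± 0.16 CPM per kb. The range of each overlapped that of the next. Above them by mean lay Zbtb38, a zinc finger protein that binds methylated DNA (4.61 CPM per kb), and Efemp1, the matrix glycoprotein fibulin-3 (4.46). Qk, an RNA-binding protein of glia (4.12), lay there too. The range of Efemp1, 2.84 to 5.65 CPM per kb, overlapped those of the middle genes. Below them came the zinc finger gene Zmat4 at 2.16 CPM per kb, Ctnnd2 (delta-catenin) at 1.59, the dystrophin partner syntrophin gene Sntb1 at 1.58, the dipeptidase gene Cndp2 at 1.54, the rhomboid protease gene Parl of the inner mitochondrial membrane at 1.36, the histone methyltransferase gene Setmar at 1.18, the MAP kinase phosphatase gene Ptprr at 0.908 and the HMG-box gene Tox at 0.891 CPM per kb. The unconventional myosin gene Myo1d (0.312), the phosphodiesterase gene Pde11a (0.278), Shisa6, which encodes an auxiliary subunit of AMPA receptors (0.274), the zinc finger gene Hivep3 (0.244), the transcription factor gene Zic2 (0.234), the serine protease gene Prss56 (0.224) and the endocytic adaptor gene Ehbp1l1 (0.214 CPM per kb) lay close together, each overlapping the next.

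For 3 of the 30, Zic2, Prss56 and Cd55, the mean was under 1 CPM, the level below which genes were not tested. Zic2 measured 0.876, 0.650, 0.365, 0.675 and 0.574 CPM in the left retinas of mice 61, 64, 65, 66 and 68 and 0.668, 1.05, 0.814, 0.510 and 0.558 CPM in the right retinas. Prss56, whose loss makes mouse eyes small, measured 0.686, 0.704, 0.301, 0.342 and 0.393 on the left against 0.790, 0.338, 0.535, 0.448 and 0.339 CPM on the right. Cd55 measured 0.253, 0.303, 0.14, 0.231 and 0.0957 on the left against 0.111, 0.282, 0.245, 0.290 and 0.339 CPM on the right, or 9 to 33 counts in a library. Its near copy Cd55b was not found under that symbol among the 25905 genes listed, and how reads common to both were counted is not known. In all 3 the sides overlapped, and few reads lay behind them, with 34 to 112 counts for Zic2 and 28 to 71 for Prss56. In a fit without the filter their right-minus-left differences were 0.08 (95% interval -0.13 to 0.29), 0.01 (-0.17 to 0.18) and 0.06 (-0.07 to 0.19) log2 units. Bicc1 was the nearest above the filter, with a mean of 1.01 CPM. It measured 0.876, 1.30, 1.10, 0.731 and 1.19 on the left against 0.935, 1.04, 0.803, 1.11 and 0.996 CPM on the right, with wide overlap.

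The genes as a group are long. Their median span from first to last exon was 247 kb, against 21.4 kb for the 14210 genes tested, while the median exon length was 6.29 against 4.37 kb. The tested genes were filtered by level and not by class, and of the 25905 genes listed 16635 were protein coding. Of the 30, 19 spanned over 100 kb, or 63.3%, against 14.5% of tested genes. The span exceeded 1000 kb in 4 of them (Dlg2 1973, Rbfox1 1526, Magi2 1478 and Lrrc4c 1314 kb), against 0.366% of tested genes. Dlg2 covers bases 90476672 to 92449247 of chromosome 7 and Rbfox1 bases 5885355 to 7411526 of chromosome 16 on GRCm38. The library kit keeps unspliced RNA, and whether reads within introns were counted is not given in the sources used here. Exons of other annotated genes shared 11% of the exon bases of Ptprr, 4.69% of Bicc1, 3.86% of Lama2 and less of any other locus gene.

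For 20 of these genes 1 to 4 relatives were chosen for comparison, not every gene of the family. In 6 of the 20 sets the locus gene was higher per length than each relative chosen, in 10 of 10 retinas, and in 5 of these 6 the set held a single relative. Aplp2 was 4.88 ± 0.253 times its relative Aplp1 (SD, n = 10), with App, the amyloid precursor, lower still at 6.19 CPM per kb. Ano2 was 42.2 ± 5.03 times Ano1, Efemp1 7.03 ± 1.06 times Efemp2, Ptprr 8.06 ± 0.726 times Ptpn5 and Chd7 2.0 ± 0.178 times Chd8. Cndp2 was higher than Cndp1, which averaged only 0.0846 CPM. In the other 14 sets a relative was the higher in 10 of 10 retinas. Rasgrf2 was 3.3 ± 0.284 times Rasgrf1, Sntb2 5.95 ± 0.704 times Sntb1, Mfn2 2.10 ± 0.136 times Mfn1 and Shisa9 5.39 ± 0.373 times Shisa6. Among the synaptic scaffolds Dlg4 (PSD-95) was 1.72 ± 0.0885 times Dlg2. Among splicing factors Rbfox2 was 1.28 ± 0.134 times Rbfox1, and Rbfox3 stood at 0.562 CPM per kb. Among laminin alpha chains Lama1 and Lama5 (0.556 and 0.525 CPM per kb) stood above Lama2.

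**Figure D2:**
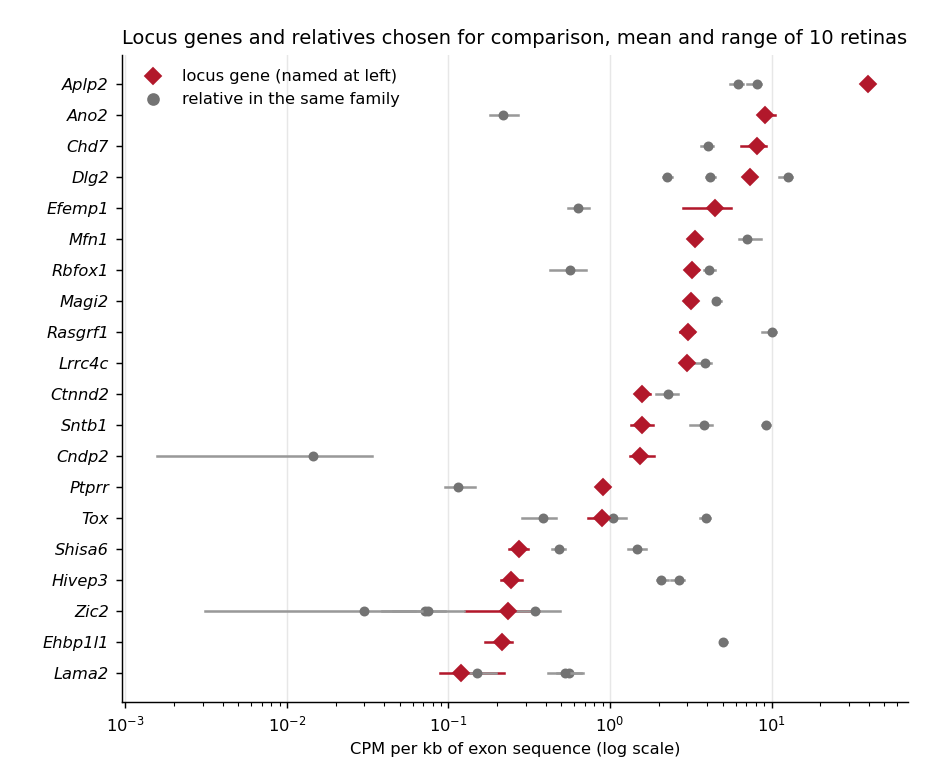
Mean (marker) and range over 10 retinas (line) of 20 locus genes (diamonds) and the relatives chosen for comparison (circles) in CPM per kb of exon sequence on a log axis. The diamond lies farthest right in 6 sets, among them Aplp2 and Ano2, and left of at least 1 relative in the other 14.

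Right and left retinas were compared first. Of the 30 genes 27 were tested, and limma called 0 of the 27, where it called 0.0% of all 14210 genes (adjusted p at least 0.9996 for every locus gene). The retinas of a mouse were paired in this fit. Of the 27, 18 were higher and 9 lower on the right on average, 66.7% higher against 51.1% of all tested genes, with a median difference of 0.02 log2 units against 0.00. At an unadjusted p under 0.05 there was 1 locus gene, where 2.34% of all genes lay. A lone gene among 27 is near that share. The direction was the same in all 5 mice for 2 of the 27, with a background of 4.79%.

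Ehbp1l1, at the endocytic recycling compartment, was the locus gene of lowest p. It measured 1.36, 1.17, 1.34, 1.42 and 1.48 CPM in the left retinas of mice 61, 64, 65, 66 and 68 and 1.58, 1.64, 1.65, 1.71 and 1.54 CPM in the right retinas, so that the sides did not overlap. The difference was 0.16 log2 units (SE 0.07, 95% interval 0.01 to 0.31), with an unadjusted p of 0.0407 and an adjusted p of 0.9996 by limma over all genes. Setmar was the lower in the right eye of 5 of 5 mice, at 2.82, 1.95, 2.23, 1.81 and 2.10 on the left against 2.34, 1.93, 2.14, 1.57 and 2.0 CPM on the right. Its sides overlapped widely, and the difference was -0.08 (SE 0.06, 95% interval -0.23 to 0.06). Lrrc4c was higher on the right in 4 of 5 mice, with 13.0, 12.7, 14.5, 13.9 and 13.1 on the left against 14.2, 13.8, 15.0, 13.9 and 14.4 CPM on the right (0.08, SE 0.04, 95% interval -0.01 to 0.18). Neither passed.

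Among genes of transcription and chromatin, 2 of the 6 tested were higher and 4 lower on the right, with a median of -0.01. Tox, known from T cell development, measured 6.81, 7.78, 6.67, 6.26 and 5.54 on the left against 6.56, 6.09, 7.94, 6.89 and 7.23 CPM on the right. Its sides overlapped and its mice went both ways, from -0.31 in mouse 64 to 0.33 in mouse 68, with a mean of 0.06 (SE 0.09, 95% interval -0.13 to 0.26). Zbtb38 differed by -0.04, Zmat4 by 0.03 and Chd7 by -0.02 (SE 0.03), and Hivep3 by less than 0.01. For the 3 RNA-binding genes the differences were 0.01 for Rbfox1, 0.03 for Qk and -0.04 for Bicc1. Rbfox1 measured 13.1, 13.7, 15.4, 14.9 and 13.6 on the left against 13.3, 15.3, 13.7, 14.8 and 14.0 CPM on the right, with overlap (SE 0.05, 95% interval -0.10 to 0.12).

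Of the 6 genes of synapses and junctions 5 were higher and 1 lower on the right, with a median of 0.03. Shisa6 measured 1.78, 1.99, 1.76, 2.31 and 2.02 on the left against 1.85, 2.09, 2.29, 2.18 and 2.14 CPM on the right, with overlap (0.07, SE 0.07, 95% interval -0.09 to 0.22). Dlg2 differed by 0.04, and Ctnnd2 and Sntb1 by 0.01 each. Magi2 varied least of the 30 between libraries, at 35.3 to 37.0 CPM in all 10 retinas. Of the signalling genes, Rasgrf1, which couples calcium to Ras, measured 32.6, 34.8, 31.9, 35.7 and 30.1 on the left against 33.4, 36.8, 33.0, 35.2 and 32.6 CPM on the right. It was higher on the right in 4 of 5 mice by 0.05 on average (SE 0.04, 95% interval -0.03 to 0.13), and the sides overlapped. Ano2 was highest in mouse 61, with 56.3, 50.6, 45.8, 45.8 and 47.6 on the left against 50.8, 48.3, 45.9, 50.0 and 46.7 CPM on the right, and its sides overlapped (-0.02, SE 0.04, 95% interval -0.12 to 0.07). Ptprr differed by 0.05 and Pde11a by -0.02.

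All 5 genes of mitochondria, motors, trafficking and metabolism were higher on the right on average, by 0.01 to 0.16, with a median of 0.05 and no call. Beside Ehbp1l1 these were Cndp2 and Parl at 0.05, Myo1d at 0.02 and Mfn1 at 0.01. Among matrix and surface genes Lama2 and Efemp1 had the largest right-minus-left means beside Ehbp1l1, at 0.19 (SE 0.14) and 0.14 (SE 0.12), and they are described with the fellow eyes. Aplp2 measured 237, 244, 225, 247 and 222 on the left against 218, 241, 229, 242 and 233 CPM on the right, so the sides overlapped (-0.01, SE 0.04, 95% interval -0.09 to 0.07). For 23 of the 27 genes the 95% interval of the difference lay within 0.25 log2 units of 0, and for 27 of 27 within 0.5. Of all 14210 tested genes, 11861 lay within 0.25 and 14050 within 0.5, so the locus genes are near the background here. The added 1 CPM shrinks differences of genes near that level. With 0.1 CPM in place of 1 CPM as pseudocount the interval of Lama2 reached 0.68.

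**Figure D3:**
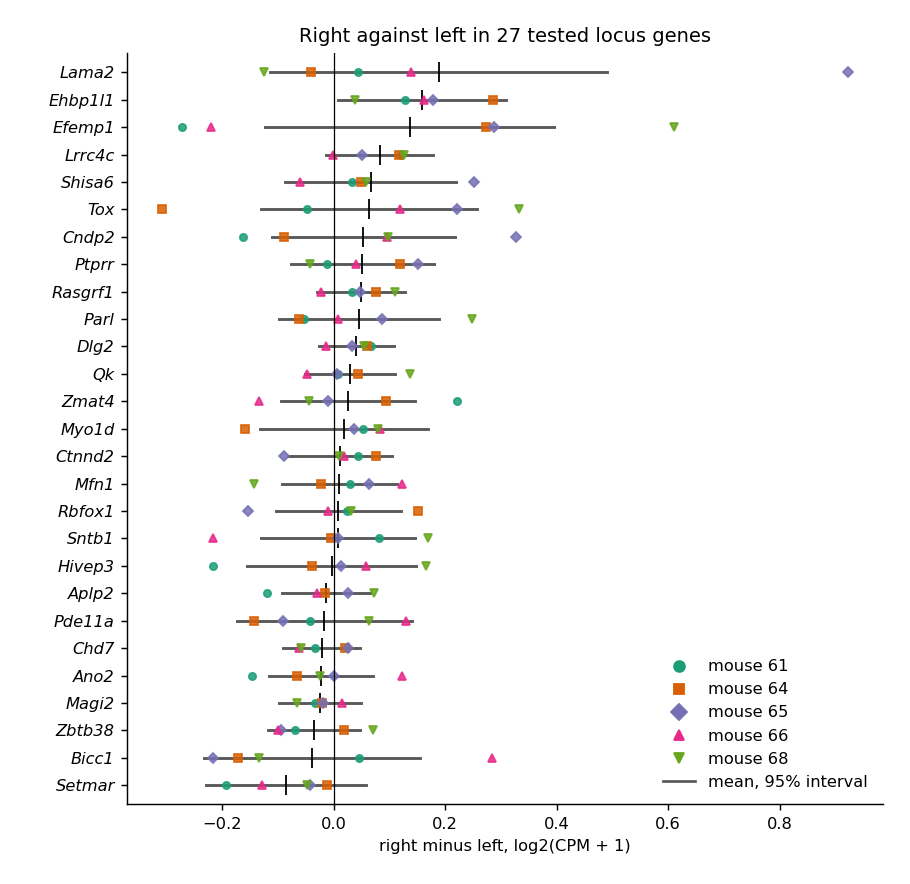
Right minus left on the log2(CPM + 1) scale for the 27 tested genes, with the 5 mice as symbols, the mean as a bar and its 95% interval as a line. The interval of Ehbp1l1 alone (0.01 to 0.31) lies off 0, and single mice stand far out for Lama2 (mouse 65, 0.92) and Efemp1 (mouse 68, 0.61).

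Because each animal wore a single lens on an eye that the labels do not name, a further comparison took the size of the difference between fellow eyes and ignored its direction. For each gene the mean of its 5 squared differences was set against genes of like level. None of the 27 passed, where 0.338% of all genes did (limma's F-distribution fit, smallest adjusted p = 0.68 among locus genes). At an unadjusted p under 0.05 there were 2 of 27, Efemp1 and Lama2, with a background of 4.71%. The root mean square difference between fellow eyes had a median of 0.098 log2 units over the 27 and of 0.131 over all tested genes. On simulated data this test recovered 0 of 67 genes changed by 0.25 log2 units between fellow eyes, 23 of 67 changed by 0.5 and 66 of 66 changed by 1. Small differences would thus be missed. It also called 36 genes to which no difference had been added. Each simulated gene kept its own spread from the data, so the simulation cannot tell false calls from genes of large spread.

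Efemp1, which is also mutated in an inherited drusen disease of the human retina, had the lowest p in that comparison. It measured 10.39, 9.34, 7.93, 9.86 and 5.78 CPM in the left retinas of mice 61, 64, 65, 66 and 68 and 8.44, 11.5, 9.90, 8.33 and 9.36 CPM in the right retinas. The right retina was the higher in mice 64, 65 and 68 (0.27, 0.29 and 0.61) and the lower in mice 61 and 66 (-0.27 and -0.22). The root mean square was 0.36 log2 units, with an unadjusted p of 0.0112 and an adjusted p of 0.68. Optc, a proteoglycan of the vitreous made by the ciliary body, was higher or lower in the same eyes, with differences of 0.35, 2.90 and 2.56 in mice 64, 65 and 68 and of -0.68 and -0.67 in mice 61 and 66. The sum of the 6 iris and ciliary body markers, most of it Optc and the neuronally expressed Opcml, had the same sign as Efemp1 in 5 of 5 mice, running from 12.7 to 24.3 in left and from 17.8 to 30.3 CPM in right retinas. None of the 6 was at 0 in any library, and 3 had a mean under 1 CPM. The sums of the amacrine (221 to 233 CPM on the left, 221 to 235 on the right) and microglia markers (4.00 to 5.49 and 4.24 to 5.42 CPM) matched that sign in 5 of 5 mice as well. Of 14 marker lists these 3 did so. Their part in the result was not tested. In whole retina, more cells of a type and more RNA per cell cannot be told apart.

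Lama2 is the alpha chain of the laminin that binds dystroglycan, and its loss causes a muscular dystrophy. It measured 1.73, 1.70, 1.44, 2.0 and 1.80 on the left against 1.81, 1.62, 3.62, 2.30 and 1.56 CPM on the right. The right retina of mouse 65 was the highest and the left retina of the same mouse the lowest of the 10. That difference was 0.92 log2 units, against -0.12 to 0.14 in the other 4 mice. The root mean square was 0.42 log2 units, with an unadjusted p of 0.0243 and an adjusted p of 0.871. The right library of mouse 65 was also the highest in lens markers, with the lens crystallin Cryaa at 387 CPM against 2.33 CPM in its fellow eye. None of the 8 lens markers was at 0 there, and their sums ran from 6.95 to 43.8 in left and from 23.3 to 765 CPM in right retinas. The laminin genes Lama1 and Lama5 were highest in that retina too, at 6.63 and 7.58 CPM. Without mouse 65 the right-minus-left difference of Lama2 was 0.00 (SE 0.08), and without mice 65 and 68 it was 0.05 (SE 0.10). The part of lens tissue in the Lama2 value was not tested.

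**Figure D4:**
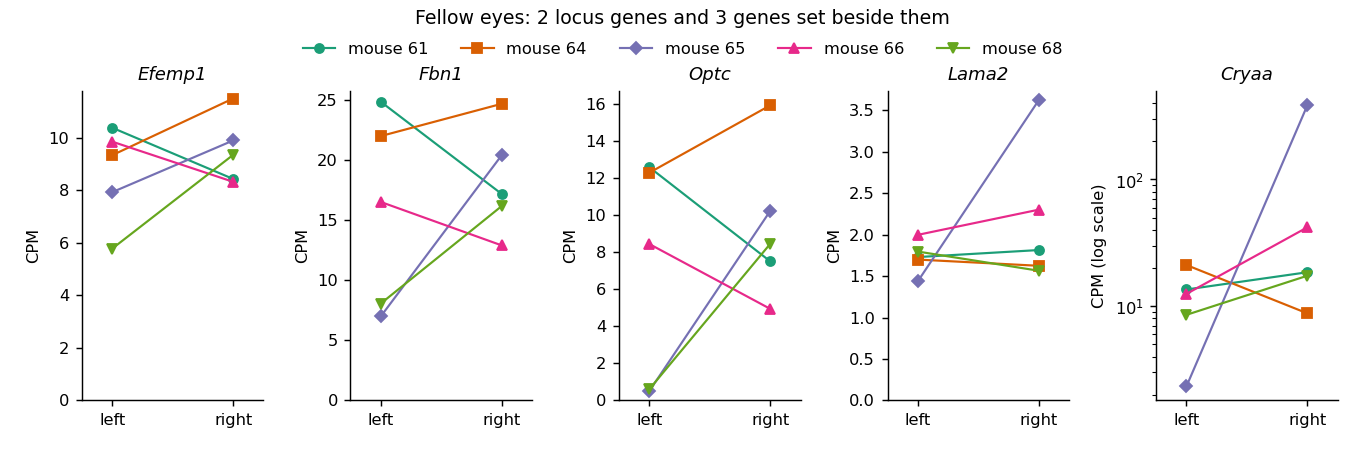
Left and right levels in CPM, joined by a line for each of 5 mice, for the locus genes Efemp1 and Lama2 and for Fbn1, Optc and the lens gene Cryaa (log axis). Efemp1, Fbn1 and Optc fall from left to right in mice 61 and 66 and rise in mice 64, 65 and 68, while Lama2 and Cryaa are highest in mouse 65 on the right (3.62 and 387 CPM).

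The sequence just before the RefSeq start site (GRCm38.p6) is shown for these genes and for Aplp2, to set their CpG content side by side. The start site was the most upstream of those listed, and 21 of the 30 genes had one. The set of all windows, given beside these 21 below, holds every listed start and not 1 per gene. CpG dinucleotides, which are dense in the start regions of many widely expressed genes, numbered 0 to 52 in the 250 bases before the site, with a median of 9 over the 21 and of 6 over all 32851 windows. Efemp1 held 10 and Lama2 held 0, and capitals mark them. For Aplp2, with 22, capitals mark instead a match to GCGGGGGCG, a form of the site bound by EGR factors, searched on both strands. It overlaps 1 of the 3 GC boxes in that window. The windows lie at chr9:31211849-31212098 on the minus strand (Aplp2), chr11:28852955-28853203 on the plus strand (Efemp1) and chr10:27616943-27617192 on the minus strand (Lama2), and each is printed 5′ to 3′ along its gene. A single exon base at the end of the Efemp1 window was left off. The Lama2 window lies inside the GENCODE M21 span of the gene, which starts farther upstream, and the other 2 windows lie outside theirs. Of the windows not shown, those of Dlg2, Hivep3 and Zbtb38, among others, lie inside the span of their gene too.
Aplp2: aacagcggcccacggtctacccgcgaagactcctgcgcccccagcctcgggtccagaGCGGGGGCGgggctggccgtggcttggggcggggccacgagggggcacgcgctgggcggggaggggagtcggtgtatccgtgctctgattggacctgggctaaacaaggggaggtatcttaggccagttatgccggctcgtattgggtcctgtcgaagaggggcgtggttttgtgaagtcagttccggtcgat
Efemp1: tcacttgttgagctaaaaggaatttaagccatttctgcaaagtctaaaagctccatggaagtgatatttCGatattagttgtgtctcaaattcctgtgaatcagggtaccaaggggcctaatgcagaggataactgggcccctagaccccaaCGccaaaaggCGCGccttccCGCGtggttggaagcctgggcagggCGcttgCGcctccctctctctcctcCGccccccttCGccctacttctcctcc
Lama2: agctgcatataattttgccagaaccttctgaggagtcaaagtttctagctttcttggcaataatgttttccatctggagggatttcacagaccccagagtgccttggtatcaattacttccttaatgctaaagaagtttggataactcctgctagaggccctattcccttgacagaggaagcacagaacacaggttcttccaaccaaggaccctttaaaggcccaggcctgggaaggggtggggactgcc

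The GCGGGGGCG match was found in 2.57% of all windows and, of the 21 locus genes with a window, in Aplp2 only. Egr1, the immediate early factor of that family, was high in mouse 61 (32.4 and 26.1 CPM) and low in the other 4 mice (1.27 to 3.57 CPM). Aplp2 in the left and right eye of mouse 61 stood at 237 and 218 CPM, against 222 to 247 CPM in the other 4 mice. The right eye of mouse 61 was thus the lowest of the 10, but the lowest mouse mean of Aplp2 lay in mouse 65. Aplp2 did not pass limma's moderated F-test between mice (adjusted p = 0.504). Its relation to Egr1 was not tested. The cyclic AMP response element TGACGTCA was in none of the 21 windows and in 1.55% of all windows. The GC box GGGCGG, searched on both strands, was in 9 of the 21 and in 32.7% of all windows.

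Levels were also compared between the 5 mice, and Chd7 was the locus gene that differed. Chd7 encodes a chromatin remodelling helicase whose loss of 1 copy causes CHARGE syndrome, in which eyes often form incompletely. It measured 91.7, 117, 107, 127 and 122 CPM in the left retinas of mice 61, 64, 65, 66 and 68 and 89.5, 119, 109, 121 and 117 CPM in the right retinas. Both retinas of mouse 61 were the lowest of the 10, both of mouse 65 came next, and mice 64, 66 and 68 were higher. Of these 3, mouse 66 lay above mouse 64, and mouse 68 overlapped both. The gap between fellow eyes was at most 0.06 log2 units, and the mouse means spanned 0.45 log2 units. Mouse took 98.2% of the sum of squares of Chd7, against a median of 56.1% over all tested genes. It was the single locus gene of 27 to pass limma's moderated F-test between mice (adjusted p = 0.0122), with 0.57% of all genes passing. The call was lost without mouse 61 (adjusted p = 0.73), and without a trend in the prior variance (adjusted p = 0.141). Chd8, the relative chosen for comparison, was also lowest in mouse 61, at 60.1 and 62.0 CPM against 63.6 to 71.8 CPM elsewhere, and did not pass. In mouse 61 Egr1 was the highest of the 5 mice, as given above. Mice 61 and 65 held Xist at 707 to 802 CPM and the other 3 mice at 0.779 to 1.87 CPM, so the mice of lowest Chd7 were those with Xist. With 5 mice neither relation was tested.

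**Figure D5:**
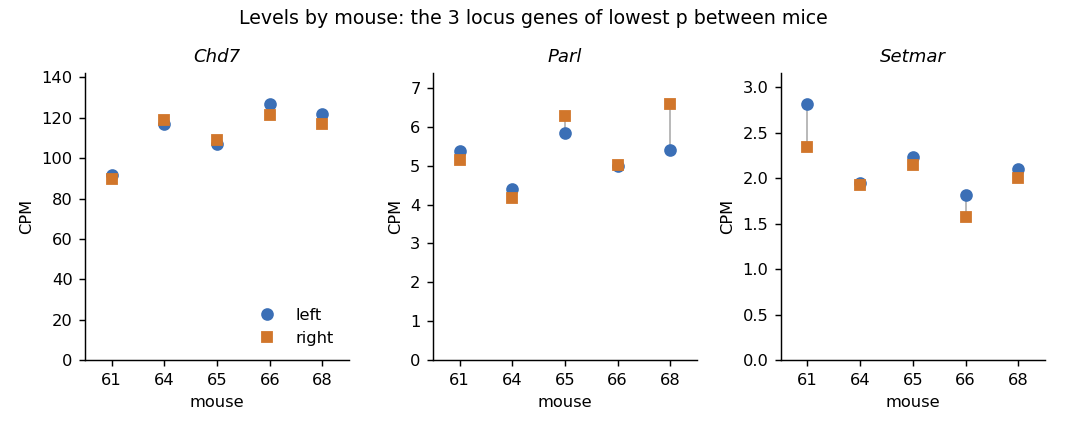
CPM of Chd7, Parl and Setmar by mouse, with the left retina as a circle and the right as a square, axes from 0. The fellow eyes of Chd7 nearly coincide in each mouse, and mouse 61 lies lowest at 91.7 and 89.5 CPM.

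At an unadjusted p under 0.05 between mice there were 5 of the 27 (Chd7, Parl, Setmar, Ctnnd2 and Rasgrf1), where 13.8% of all genes lay. Parl, which cleaves PINK1 in healthy mitochondria, measured 5.37, 4.40, 5.84, 4.98 and 5.39 on the left against 5.14, 4.17, 6.27, 5.01 and 6.59 CPM on the right. It was lowest in both retinas of mouse 64 and highest in mice 65 and 68 (range of mouse means 0.42 log2 units, limma adjusted p = 0.26). Setmar was highest in both retinas of mouse 61 and lowest in mouse 66 (range 0.41, adjusted p = 0.316). Ctnnd2, an adhesion protein of dendrites, ranged over 0.22 and Rasgrf1 over 0.19 log2 units (adjusted p = 0.329 for both). The range of mouse means had a median of 0.19 over the 27 genes and of 0.21 over all tested genes. The lowest mean lay in mouse 61 for 9 of the 27 genes, or 33.3% against 18.8% of all tested genes, and the highest in mouse 66 for 8, or 29.6% against 15.0%. The highest mean lay in mouse 61 for 6, or 22.2% against 40.0%.

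Another 22 genes named at refractive error loci, among them the gap junction gene Gjd2, the retinol dehydrogenase gene Rdh5 and the bone morphogenetic protein genes Bmp2, Bmp3 and Bmp4, gave a second view of the same class. Of the 16 tested 8 were higher and 8 lower on the right, limma called 0 between the sides (0 also at an unadjusted p under 0.05), and 0 passed between mice. At an unadjusted p under 0.05 they numbered 4 of 16 between fellow eyes, where 4.71% of all genes lay, and 1 of 16 between mice, where 13.8% lay. Fbn1, the gene of the matrix protein fibrillin-1, was the 1 that passed between fellow eyes (limma adjusted p = 0.0203). On simulated data that test also called genes to which no difference had been added. It measured 24.8, 22.0, 6.98, 16.5 and 8.05 on the left against 17.2, 24.7, 20.4, 12.9 and 16.2 CPM on the right. Its differences of 0.16, 1.42 and 0.92 in mice 64, 65 and 68 and of -0.51 and -0.33 in mice 61 and 66 had the sign of Efemp1 in 5 of 5 mice. Of 48 tested relatives and binding partners 24 were higher and 24 lower on the right, and 0 passed any of the 3 comparisons. Of these 48, the genes at an unadjusted p under 0.05 numbered 3 between the sides, 2 between fellow eyes and 5 between mice, beside 2.34%, 4.71% and 13.8% of all genes.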

How the data were processed

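Libraries of 10 retinas were made after depletion of ribosomal RNA. The table deposited by the authors holds CPM plus 0.0001, a unit inferred from its numbers, and the constant was taken off. Per the submitters' processing notes STAR, Partek and GRCm38 (mm10) were used. The sources used here give no versions, no counting rule and no word on strand. The listed genes held 29680000 to 37250000 counts per library by the step of the low values. Of values up to 20 steps 90.5% to 91.6% were whole multiples within 0.1 of a step, too few for a count test, so limma 3.58.1 (R 4.3.3) was used on log2(CPM + 1).

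The 14210 genes of mean at least 1 CPM entered each fit, and p-values were adjusted over all of them by Benjamini-Hochberg (threshold 0.05). Right minus left was two-sided with the mouse as a block. The pairing rests on the number in the titles, taken as the animal, since the protocol compares an eye with its fellow. Deviations of fellow eyes correlated across genes at 0.143 to 0.607 in the 5 mice. Between-mouse and one-sided between-eye tests used the same values. The p-value between sides rests on the spread of the right-minus-left difference among these 5 mice. That between mice sets the spread among mice against the differences left between fellow eyes once side is allowed for. Both error variances were moderated over all tested genes. The between-eye p-value sets a gene against genes of like level. The scripts were tested on simulated data. The unadjusted 95% intervals come from the same fits.

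The genes, the other lists and the rule for naming were chosen with earlier results of these data known. By that rule every locus gene is named, and full values are given for those that passed a test, the 3 of lowest p between sides and between mice, the 3 of largest between-eye difference, the 3 highest and lowest per length, and 8 genes whatever their values. Ends of genes are given 1 base before the deposited stop, as in GENCODE M21.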

Additional observations from a re-analysis of the deposited data

How the results depend on the processing

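Another pseudocount (0.1 or 5 CPM), another filter on low values (none, 0.1 or 5 CPM), scaling by median ratios, a prior without a trend or with robust fitting, leaving out each mouse and leaving out mice 65 and 68 were tried. The number of locus genes passing right against left was 0 in each, also without the replicate block (0), and their adjusted p was at least 0.985. Between fellow eyes it was 0 in each, with a smallest adjusted p of 0.281 for Efemp1 under the robust prior. Between mice the number was 1, Chd7, in 12 of 14 alternatives. It was 0 without the variance trend and from 0 to 1 when a mouse was left out, the 0 being without mouse 61. The adjusted p of Chd7 ran from 0.00501 to 0.73. Of the 27 right-minus-left differences, none of them called, 15 changed sign in at least 1 of up to 15 alternatives. Efemp1 was at -0.07 without mice 65 and 68 and at 0.02 without mouse 68 alone. Ehbp1l1 stayed above 0 in 14 of 14, from 0.06 (pseudocount 5 CPM) to 0.25 (pseudocount 0.1 CPM), and its 95% interval took in 0 without the filter, without mouse 61, 64, 65 or 66, and without mice 65 and 68 together. Cd55, Prss56 and Zic2 rest on 9 to 112 counts a library, which limits their precision.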
